A study of Homo sapiens with 15 samples.

Results

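The DNA repair and damage checkpoint genes are a set of 47 genes whose products mend breaks, crosslinks, mismatches and damaged bases in DNA, or signal such damage to the cell cycle. Membership was set by a list of gene symbols. The members, their roles and the other gene lists used below were chosen with earlier results of these data known. Their counts beside the shares of all genes therefore describe the lists and do not test them. The level of each gene was read from the probe set annotated to that symbol alone, and where a gene had several, from the probe set whose mean across the 15 arrays was highest. By this rule 45 of the 47 genes were measured, out of 11963 genes named on the arrays, and BRCA2 and FANCA were not analysed here. The 45 genes comprised 12 of homologous recombination, 3 of the Fanconi anaemia pathway, 2 of mismatch repair, 6 of the damage checkpoints, 5 of end joining, 9 of base excision repair, 6 of nucleotide excision repair and 2 subunits of DNA polymerase ε.

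Cells repair a double-strand break either by homologous recombination, which copies the undamaged sister chromatid and works mainly while DNA is being replicated, or by end joining, which ligates the ends directly at any stage of the cycle. Base excision repair replaces single damaged bases, nucleotide excision repair removes bulky lesions such as those left by ultraviolet light, mismatch repair corrects copying errors, and the Fanconi anaemia proteins open crosslinks between strands for recombination to finish. p63 is a relative of the tumour suppressor p53 that maintains basal epithelial cells. Its ΔN isoforms lack the N-terminal transactivation domain, and its TA isoforms carry it.

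Transcripts had been measured on 15 Affymetrix arrays with total RNA of MCF-10A cells, an established, non-tumorigenic line of human mammary epithelial cells, 48 hours after infection with a retrovirus or an adenovirus. In the knockdown arm, 2 arrays each held cells with shDBD, a short hairpin RNA against all p63 isoforms, cells with shTA, a hairpin against the isoforms with the transactivation domain, and cells with the hairpin vector. In the overexpression arm, 3 arrays each held cells given the ΔNp63α isoform, cells given the TAp63γ isoform, and cells given the empty vector. The labels do not say which virus served which arm, name no clone, and give no hairpin in the overexpression arm. They call the replicates biological without naming separate infections, and the p-values therefore reflect only how far these arrays scatter. Levels of the p63 transcript are not analysed here, which leaves the group labels unchecked by it.

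Levels are deposited log2 values, so a difference of 1 is a 2-fold change. The median of an array was 7.189 to 7.213 for knockdown samples, but 6.951 to 6.983 for overexpression samples; the arms were treated as normalized separately and no level was compared across them. All 45 genes stood above the 20th percentile of every array. Of 8 measured mammary epithelial markers, 7 stood above the 20th percentile on every array and KRT19 on no array. On every array 5 of 7 fibroblast, 3 of 4 immune and 3 of 5 endothelial markers stood above it too. This threshold therefore does not tell cell types apart. Correlations between replicate arrays ran from 0.9976 to 0.998 for knockdown samples and from 0.9925 to 0.9979 for overexpression samples. Within groups, the median SD of the 45 genes was 0.0821 and 0.13 in these arms, against 0.0821 and 0.113 for all genes.

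A gene is said below to have risen or fallen where its Benjamini-Hochberg adjusted p, from limma over all 11963 genes of a comparison, was below 0.05. Changes are log2 differences between group means ± SE, with n = 2 for each knockdown group and n = 3 for each overexpression group. In bulk RNA, fewer cells that express a gene and less RNA of that gene per cell cannot be told apart.

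With shDBD, 23 of the 45 genes fell and 1 rose, while 10.2% of all genes fell and 11.1% rose. The median change of the 45 genes was -0.35, against 0.00 over all genes, and the individual changes ran from -1.33 to 0.39. The falls covered 9 of 12 recombination genes, 3 of 3 Fanconi genes and 2 of 2 polymerase ε subunits, against 1 of 6 nucleotide excision genes and 1 of 5 end-joining genes. Arrays of shDBD and the vector did not overlap for 33 of the 45 genes, against 61.7% of all genes. FANCG alone of the 45 fell by at least 2-fold, a size that 2.83% of all genes passed in either direction. Leaving out array 2 of the vector lowered the number of genes called in either direction to 15, the lowest count over the 15 arrays left out in turn.

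With shTA, 1 of the 45 genes fell and 0 rose by limma, while 0.853% of all genes fell and 1.44% rose. At an unadjusted p below 0.05, 4 genes were lower and 1 was higher. The 45 changes ran from -0.45 to 0.29 with standard errors of 0.0889 to 0.216, so changes of the size of these errors were not detectable with 2 arrays per group. In either direction 2.29% of all genes passed, and 0.251% by at least 2-fold, a size that none of the 45 genes reached. Arrays of shTA and the vector did not overlap for 29 of the 45 genes, against 50.7% of all genes. In the direct comparison of the hairpins, shDBD had the lower level for 20 of the 45 genes and the higher level for 1, against 9.23% and 9.14% of all genes. The arrays of the hairpins did not overlap for 35 of the 45 genes, against 60.3% of all genes, and NBN alone of the 45 was at least 2-fold lower (2.36% of all genes passed with that size in either direction). Further NBN probe sets gave smaller differences of -0.63, -0.81 and -0.75. Without shTA array 2 the number called in either direction was 12, against 21 with all arrays.

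With ΔNp63α, 16 of the 45 genes rose and 9 fell, while 12.3% of all genes rose and 16.6% fell. The median change of the 45 genes was 0.00, and the changes ran from -0.81 to 1.27. Higher levels were found for 6 of 12 recombination genes and 3 of 6 checkpoint genes, whereas 3 of 6 nucleotide excision genes fell and the other 3 did not pass the test. Arrays did not overlap for 26 of the 45 genes, against 36.5% of all genes, and POLE2 and RAD51AP1 rose by at least 2-fold, which 2.73% of all genes did in either direction.

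With TAp63γ, 7 of the 45 genes rose and 18 fell, while 20.5% of all genes rose and 22.8% fell. The median change was -0.16, against -0.02 over all genes, and the changes ran from -1.74 to 0.89. Of the 12 recombination genes 7 fell, of the 5 end-joining genes 4 fell, and both mismatch genes fell, whereas of the 9 base excision genes 2 rose and none fell by limma, nor was any lower at an unadjusted p below 0.05 in the probe sets used. Both further probe sets of OGG1 were lower with TAp63γ (-0.41 ± 0.086, adjusted p = 0.00102, and -0.25 ± 0.0953, adjusted p = 0.0468). Genes that passed in either direction made up 43.4% of all genes. Arrays of TAp63γ and the vector did not overlap for 29 of the 45 genes, against 49.9% of all genes, and RAD50, XPA and RAD51C fell by at least 2-fold, a size passed in either direction by 8.4% of all genes. The other RAD51C probe set gave -0.63 ± 0.095, while further probe sets of ATM (-1.16 and -1.31) and PRKDC (-1.04) reached this size. In total, 5 of the 45 genes (TP53BP1, XRCC6, XRCC1, MPG and APEX1) passed the test in no comparison with a vector as read from these probe sets.

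**Figure D1:**
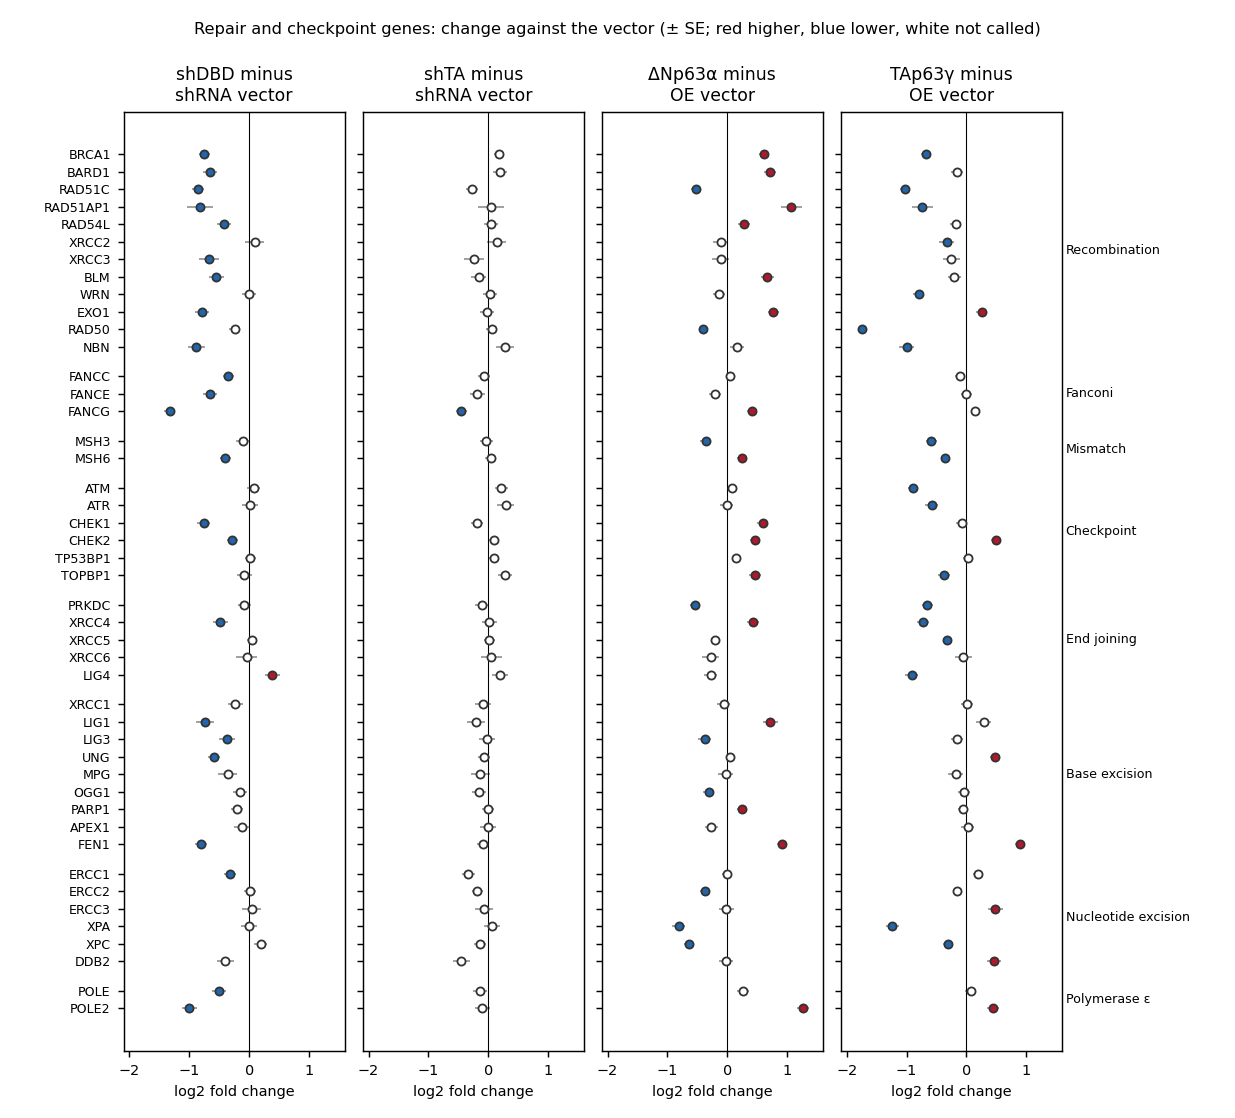
Change of each of the 45 genes against the vector of its arm, 1 panel per comparison, as a log2 fold change (horizontal axis) with its SE; red points rose, blue points fell and white points did not pass the test. Points of the recombination, Fanconi and polymerase ε genes lie mostly left of 0 with shDBD, where 23 genes fell, and the shTA panel holds 1 coloured point, FANCG.

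**Figure D2:**
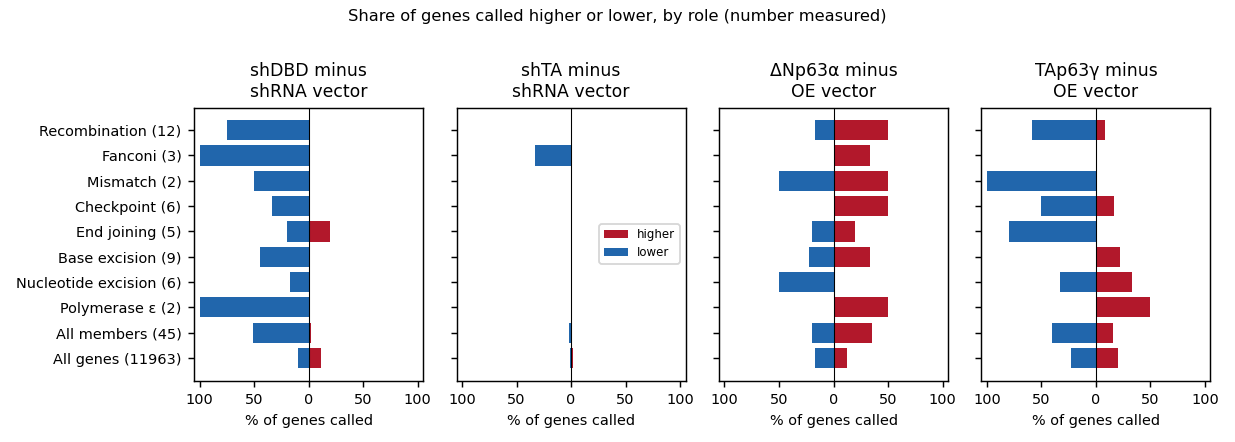
Share of genes in each role that rose (red, to the right) or fell (blue, to the left), in percent, with the number of genes measured in each role beside its name. The lowest bars give all 45 genes and all 11963 genes; with shDBD the share that fell is larger among the 45 genes than among all genes, and with shTA both shares are small.

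Among the recombination genes, BRCA1, whose product with its partner BARD1 forms a ubiquitin ligase at breaks, differed between the groups of both arms. BRCA1 stood at 5.56 and 5.41 on the shDBD arrays, against 6.19 and 6.28 on the vector arrays, and it fell by 0.75 ± 0.0914 (adjusted p = 2.2e-05). In the other arm BRCA1 read 8.0, 7.95 and 8.14 with ΔNp63α, 6.73, 6.74 and 6.75 with TAp63γ, and 7.43, 7.32 and 7.51 with the vector. The 3 groups did not overlap, with ΔNp63α highest and TAp63γ lowest. BRCA1 thus rose by 0.61 ± 0.0746 with ΔNp63α (adjusted p = 1.33e-05) and fell by 0.68 ± 0.0746 with TAp63γ (adjusted p = 2e-06). A second BRCA1 probe set also fell with shDBD and rose with ΔNp63α, but its difference with TAp63γ was -0.10 ± 0.11 (adjusted p = 0.521). BARD1 read 7.02 and 6.98 with shDBD, against 7.72 and 7.57 with the vector, and fell by 0.65 ± 0.121 (adjusted p = 0.000986). It read 7.94, 7.62 and 7.82 with ΔNp63α and 7.15, 6.95 and 7.15 with the vector, a rise of 0.71 ± 0.0987 (adjusted p = 5.04e-05). Its TAp63γ arrays, at 6.77, 6.94 and 7.09, overlapped those of the vector.

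RAD51AP1, whose product promotes strand invasion in recombination, had the largest difference between the isoforms among the 45 genes. Its levels were 8.20, 8.37 and 8.87 with ΔNp63α, 6.47, 6.87 and 6.66 with TAp63γ, and 7.72, 7.08 and 7.44 with the vector. No array of these 3 groups overlapped another group. The rise with ΔNp63α was 1.07 ± 0.176 (adjusted p = 0.000245), and the change with TAp63γ was -0.74 ± 0.176 (adjusted p = 0.00261). With shDBD RAD51AP1 read 5.77 and 5.40, against 6.31 and 6.5 with the vector, and fell by 0.82 ± 0.216 (adjusted p = 0.0118). That call was lost without shDBD array 2 (-0.64, adjusted p = 0.136) and without vector array 2 (-0.73, adjusted p = 0.0976). RAD54L, a motor protein that works along DNA during strand exchange, fell by 0.42 ± 0.116 with shDBD and rose by 0.28 ± 0.0949 with ΔNp63α. Its arrays read 7.62 and 7.47 with shDBD against 7.95 and 7.98 with the vector, and 7.59, 7.87 and 7.50 with ΔNp63α against 7.37, 7.36 and 7.42 with the vector. The groups did not overlap, but both calls (adjusted p = 0.0161 and 0.0397) depended on single arrays: without shDBD array 2 the change was -0.34 (adjusted p = 0.143), without either vector array the adjusted p was 0.0736 or 0.0866, and without ΔNp63α array 2 the change was 0.17 (adjusted p = 0.197).

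RAD51C, whose product acts in homologous recombination and its later steps, was the only recombination gene that fell in 3 comparisons. It read 8.74 and 8.6 with shDBD, against 9.55 and 9.51 with the vector, a fall of 0.85 ± 0.101 (adjusted p = 1.65e-05). In the overexpression arm it read 8.97, 8.90 and 8.72 with ΔNp63α, 8.25, 8.39 and 8.45 with TAp63γ, and 9.37, 9.45 and 9.36 with the vector. These groups did not overlap either. RAD51C fell by 0.52 ± 0.0828 with ΔNp63α (adjusted p = 0.00017), where its other probe set gave -0.22 ± 0.095 (adjusted p = 0.103), and by 1.03 ± 0.0828 with TAp63γ (adjusted p = 6.11e-08), where the other gave -0.63 ± 0.095. XRCC3 and XRCC2, which also act in recombination, each passed in 1 comparison with a vector. XRCC3 read 6.35 and 6.34 with shDBD, against 7.0 and 7.02 with the vector, and fell by 0.67 ± 0.17 (adjusted p = 0.00968). Without any 1 of these 4 arrays its adjusted p lay between 0.0536 and 0.0593. XRCC2 was 0.33 ± 0.128 lower with TAp63γ (adjusted p = 0.0456), a call lost without any of 8 single arrays, among them TAp63γ array 2 (-0.26, adjusted p = 0.16) and vector array 2 (-0.26, adjusted p = 0.152).

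RAD50 and NBN encode members of the complex that first binds a broken end and starts its resection, and both fell with TAp63γ. RAD50 read 8.64, 8.75 and 8.51 with TAp63γ, 10.02, 9.89 and 10.01 with ΔNp63α, and 10.38, 10.35 and 10.39 with the vector. It fell by 1.74 ± 0.0757 with TAp63γ, a 3.34-fold difference (adjusted p = 5.52e-11), and by 0.40 ± 0.0757 with ΔNp63α (adjusted p = 0.000885). No TAp63γ array came within 1 log2 unit of a ΔNp63α or vector array. NBN read 8.88, 9.26 and 9.08 with TAp63γ, against 10.25, 9.93 and 10.02 with the vector, and fell by 1.0 ± 0.119 (adjusted p = 4.79e-06). With ΔNp63α it read 10.19, 10.05 and 10.45, which overlapped the vector, and the difference of 0.16 ± 0.119 did not pass (adjusted p = 0.37). NBN was lower with the hairpin against all isoforms too: 7.94 and 7.76 with shDBD, against 8.71 and 8.74 with the vector, a fall of 0.88 ± 0.146 (adjusted p = 0.000389). RAD50 itself was 0.24 ± 0.0928 lower with shDBD (adjusted p = 0.0846), which did not pass.

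EXO1, an exonuclease that lengthens resected ends and also serves mismatch repair, read 7.60 and 7.59 with shDBD, against 8.41 and 8.37 with the vector. It fell by 0.79 ± 0.112 (adjusted p = 9.09e-05). With ΔNp63α it read 8.37, 8.31 and 8.04 and with TAp63γ 7.69, 7.75 and 7.74, against 7.31, 7.55 and 7.55 with the vector. Both isoform groups stood above the vector arrays, and the changes were 0.77 ± 0.0916 (adjusted p = 1.05e-05) with ΔNp63α and 0.26 ± 0.0916 (adjusted p = 0.0342) with TAp63γ. The smaller of these calls was lost without vector array 1 (0.17, adjusted p = 0.173) and without any 1 of the 3 TAp63γ arrays (adjusted p between 0.051 and 0.0812). The helicases BLM and WRN, which unwind recombination intermediates, passed in different comparisons with a vector, and both were higher with ΔNp63α than with TAp63γ. BLM read 6.81 and 6.32 with shDBD, against 7.11 and 7.13 with the vector, and fell by 0.55 ± 0.129 (adjusted p = 0.00549), but without shDBD array 2 the change was -0.31 (adjusted p = 0.104). BLM rose by 0.67 ± 0.105 with ΔNp63α (8.17, 7.98 and 8.0, against 7.43, 7.28 and 7.42 with the vector; adjusted p = 0.000158), and its change with TAp63γ was -0.20 ± 0.105 (adjusted p = 0.145). WRN passed against a vector only with TAp63γ, where it read 6.99, 7.32 and 7.37, against 8.13, 7.96 and 8.0 with the vector, a fall of 0.80 ± 0.0935 (adjusted p = 3.78e-06).

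**Figure D3:**
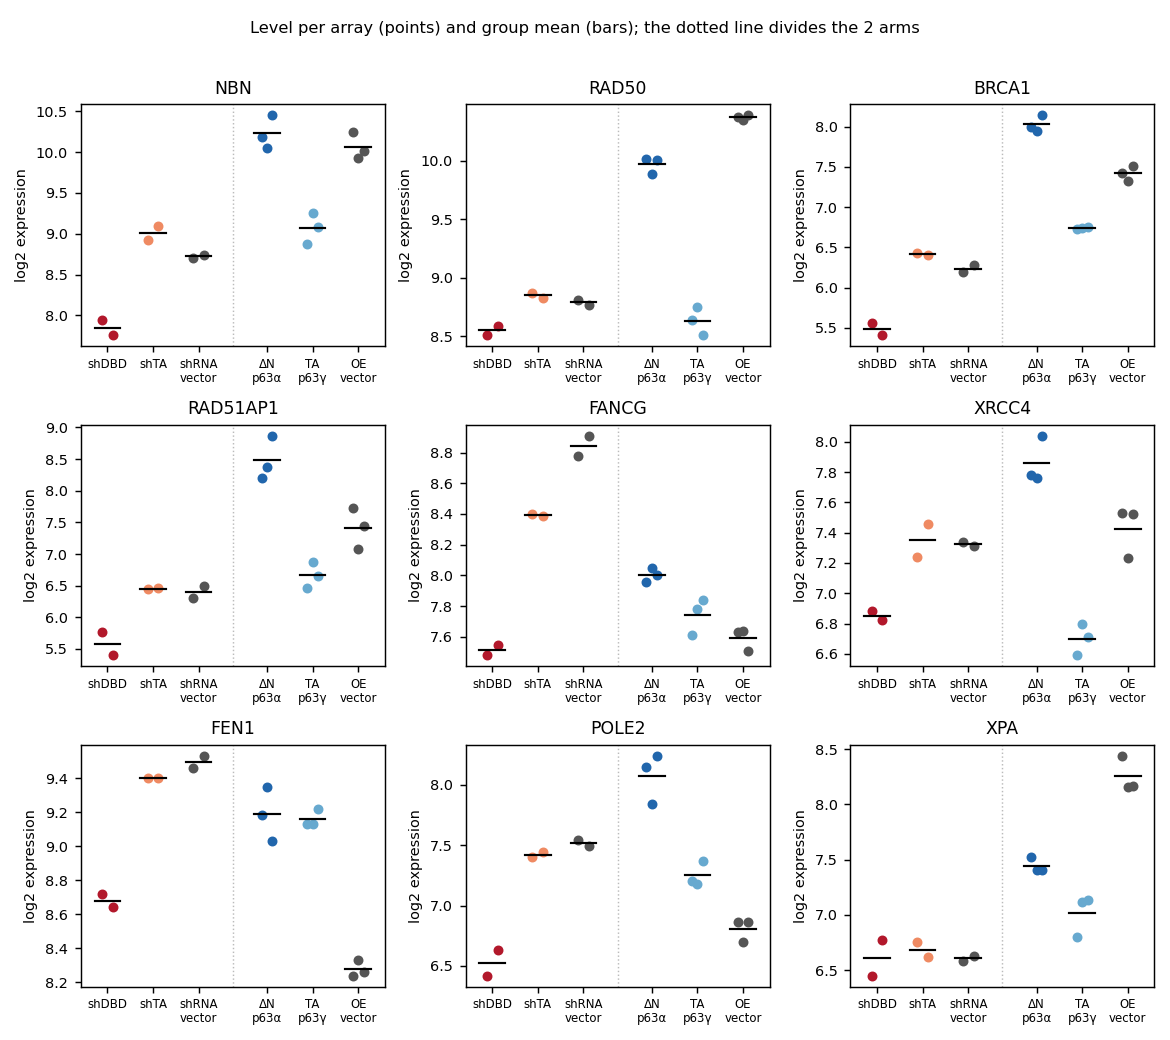
Level of 9 genes on each array (points) with the group mean (bar), on the log2 scale, 3 groups of the knockdown arm left of the dotted line and 3 of the overexpression arm right of it; levels are comparable only within an arm. Within the overexpression arm BRCA1, RAD51AP1 and XRCC4 stand highest with ΔNp63α and lowest with TAp63γ, while FEN1 stands above the vector with both isoforms.

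The Fanconi genes, whose products form the core complex that marks crosslinks, all fell with shDBD, against 10.2% of all genes. FANCG changed most of the 45 genes in that comparison. It read 7.48 and 7.55 with shDBD and 8.40 and 8.39 with shTA, against 8.78 and 8.91 with the vector, so that the 3 groups were ordered without overlap. The fall was 1.33 ± 0.0951 with shDBD, a 2.52-fold difference (adjusted p = 1.14e-07), and 0.45 ± 0.0951 with shTA (adjusted p = 0.02). The shTA call was the single one among the 45 genes, and it was lost without shTA array 1 (-0.46, adjusted p = 0.108), shTA array 2 (-0.45, adjusted p = 0.156), vector array 1 (-0.52, adjusted p = 0.0683) or vector array 2 (-0.38, adjusted p = 0.194). The direct difference, shDBD minus shTA, was -0.88 ± 0.0951 (adjusted p = 8.45e-06). With ΔNp63α FANCG read 7.96, 8.05 and 8.0, against 7.63, 7.64 and 7.51 with the vector, a rise of 0.41 ± 0.0776 (adjusted p = 0.000846). With TAp63γ its arrays overlapped the vector and the change was 0.15 ± 0.0776 (adjusted p = 0.138). FANCE fell by 0.65 ± 0.119 with shDBD (adjusted p = 0.00089). FANCC fell by 0.35 ± 0.0948 (adjusted p = 0.0146), a call lost without shDBD array 1 (-0.32, adjusted p = 0.102) or vector array 1 (-0.27, adjusted p = 0.158). Neither of them passed with either isoform.

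The mismatch recognition genes MSH3 and MSH6 differed in the overexpression arm. MSH6, which recognises single mismatched bases, read 9.90, 9.91 and 9.96 with ΔNp63α, 9.34, 9.43 and 9.22 with TAp63γ, and 9.71, 9.65 and 9.68 with the vector. The 3 groups did not overlap. The rise with ΔNp63α was small, 0.24 ± 0.075 (adjusted p = 0.0251), and it missed the threshold without ΔNp63α array 2 or 3 or vector array 2 or 3 (adjusted p between 0.0503 and 0.0718) and in the mean of all its probe sets (0.14, adjusted p = 0.0991). The fall with TAp63γ was 0.35 ± 0.075 (adjusted p = 0.00111). With shDBD MSH6 read 8.76 and 8.71, against 9.06 and 9.21 with the vector, a fall of 0.40 ± 0.0919 (adjusted p = 0.00486) that was lost without vector array 2 (-0.32, adjusted p = 0.0757). MSH3, which recognises small loops, fell by 0.36 ± 0.0916 with ΔNp63α (adjusted p = 0.00777) and by 0.59 ± 0.0916 with TAp63γ (adjusted p = 6.76e-05). In the mean of all MSH3 probe sets the ΔNp63α change was -0.11 (adjusted p = 0.179).

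Of the 6 checkpoint genes, 2 fell with shDBD, 3 rose with ΔNp63α, and 1 rose and 3 fell with TAp63γ. Among all genes 10.2% fell with shDBD, 12.3% rose with ΔNp63α, and 20.5% rose and 22.8% fell with TAp63γ. The apical kinases ATM, which answers to double-strand breaks, and ATR, which answers to single-stranded DNA, did not pass with either hairpin or with ΔNp63α. With TAp63γ ATM read 7.67, 7.63 and 7.69, against 8.50, 8.66 and 8.50 with the vector, and fell by 0.89 ± 0.0893 (adjusted p = 7.25e-07). ATR fell by 0.58 ± 0.11 (8.32, 8.74 and 8.49, against 9.18, 8.98 and 9.12 with the vector; adjusted p = 0.000418). TOPBP1, the activator of ATR, read 9.33, 9.35 and 9.42 with ΔNp63α, 8.29, 8.6 and 8.67 with TAp63γ, and 8.95, 8.87 and 8.86 with the vector. It rose by 0.47 ± 0.0991 with ΔNp63α (adjusted p = 0.00184) and fell by 0.37 ± 0.0991 with TAp63γ (adjusted p = 0.00584), again without overlap of the groups.

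CHEK1, the effector kinase downstream of ATR, read 7.62 and 7.64 with shDBD, against 8.34 and 8.45 with the vector, and fell by 0.76 ± 0.105 (adjusted p = 7.38e-05). With ΔNp63α it read 8.67, 8.66 and 8.51, against 8.07, 8.08 and 7.92 with the vector, a rise of 0.59 ± 0.0857 (adjusted p = 8.38e-05). The TAp63γ arrays overlapped the vector arrays, with a change of -0.08 ± 0.0857 (adjusted p = 0.496). A second CHEK1 probe set passed neither with shDBD (-0.50 ± 0.198, adjusted p = 0.104) nor with ΔNp63α (0.45 ± 0.162, adjusted p = 0.0511). CHEK2, the effector kinase downstream of ATM, behaved alike in sign with both isoforms: it read 8.25, 8.29 and 8.16 with ΔNp63α and 8.29, 8.15 and 8.36 with TAp63γ, against 7.79, 7.83 and 7.71 with the vector. The rises were 0.46 ± 0.0781 (adjusted p = 0.000349) and 0.49 ± 0.0781 (adjusted p = 7.89e-05), and the difference ΔNp63α minus TAp63γ was -0.04 ± 0.0781 (adjusted p = 0.746). With shDBD CHEK2 read 7.61 and 7.74, against 7.99 and 7.93 with the vector; this difference of -0.28 ± 0.0957 lay at the threshold (adjusted p = 0.0492), and among the lost calls the largest adjusted p was 0.295, without shDBD array 1 (-0.22). TP53BP1, which steers breaks to end joining, had changes between 0.02 and 0.15 in the 4 comparisons with a vector and passed in none. A second TP53BP1 probe set rose with ΔNp63α (0.26 ± 0.0799, adjusted p = 0.0263).

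Of the 5 end-joining genes, 4 fell with TAp63γ, against 22.8% of all genes. LIG4 and XRCC4 encode the ligase that closes the ends and its partner. LIG4 read 7.15, 7.14 and 7.07 with TAp63γ, against 8.16, 8.01 and 7.94 with the vector, and fell by 0.91 ± 0.109 (adjusted p = 4.77e-06). XRCC4 read 6.59, 6.80 and 6.71 with TAp63γ and 7.78, 7.76 and 8.04 with ΔNp63α, against 7.53, 7.23 and 7.52 with the vector. It fell by 0.73 ± 0.101 with TAp63γ (adjusted p = 2.05e-05) and rose by 0.43 ± 0.101 with ΔNp63α (adjusted p = 0.00399), with no overlap between the groups. PRKDC, the catalytic subunit of the DNA-dependent kinase, read 10.25, 10.21 and 10.29 with TAp63γ and 10.31, 10.32 and 10.47 with ΔNp63α, both below the 10.97, 10.89 and 10.86 of the vector. Its changes were -0.65 ± 0.0854 (adjusted p = 1.19e-05) and -0.54 ± 0.0854 (adjusted p = 0.000181). Of the Ku subunits that bind the ends, XRCC5 fell by 0.32 ± 0.0732 with TAp63γ (adjusted p = 0.00193), and XRCC6 had a change of -0.05 ± 0.146 (adjusted p = 0.811).

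With shDBD the ligase and its partner moved in opposite directions, both with weak support. XRCC4 read 6.88 and 6.82 with shDBD, against 7.34 and 7.31 with the vector, and fell by 0.48 ± 0.123 (adjusted p = 0.0111). This was lost without shDBD array 2 (-0.45, adjusted p = 0.0754), vector array 1 (-0.46, adjusted p = 0.0727) or vector array 2 (-0.49, adjusted p = 0.0522), and in the mean of all its probe sets (-0.31, adjusted p = 0.142). LIG4, the only one of the 45 genes to rise with shDBD, read 6.78 and 6.51, against 6.34 and 6.16 with the vector. Its rise of 0.39 ± 0.133 lay at the threshold (adjusted p = 0.0491) and was lost in 12 of 22 alternative settings, for example without shDBD array 1 (0.26, adjusted p = 0.37) or vector array 2 (0.30, adjusted p = 0.278). PRKDC, XRCC5 and XRCC6 had changes between -0.08 and 0.05 with shDBD, none of which passed.

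Of the 9 base excision genes, 4 fell with shDBD, against 10.2% of all genes. FEN1 trims the flap left by the repair polymerase, as it does on the lagging strand in replication. It read 8.72 and 8.64 with shDBD, against 9.46 and 9.53 with the vector, and fell by 0.81 ± 0.1 (adjusted p = 2.42e-05). With ΔNp63α it read 9.18, 9.35 and 9.03 and with TAp63γ 9.13, 9.13 and 9.22, against 8.24, 8.33 and 8.26 with the vector. No array of either isoform overlapped the vector. FEN1 rose by 0.91 ± 0.0818 with ΔNp63α (adjusted p = 5.59e-07) and by 0.89 ± 0.0818 with TAp63γ (adjusted p = 2.86e-07), and the difference ΔNp63α minus TAp63γ was 0.03 ± 0.0818 (adjusted p = 0.837). LIG1, the ligase of the same steps, read 7.72 and 7.29 with shDBD, against 8.21 and 8.28 with the vector, a fall of 0.74 ± 0.148 (adjusted p = 0.00171). With ΔNp63α it read 8.08, 8.09 and 7.70, against 7.29, 7.30 and 7.12 with the vector, a rise of 0.72 ± 0.121 (adjusted p = 0.00029), while the change with TAp63γ was 0.29 ± 0.121 (adjusted p = 0.0648).

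UNG, which cuts uracil out of DNA, read 8.53 and 8.44 with shDBD, against 9.01 and 9.14 with the vector, and fell by 0.59 ± 0.0957 (adjusted p = 0.000321). It rose with TAp63γ, at 8.35, 8.41 and 8.48, against 7.96, 7.94 and 7.90 with the vector, by 0.48 ± 0.0782 (adjusted p = 0.000102). Its ΔNp63α arrays overlapped the vector (0.05 ± 0.0782, adjusted p = 0.682), and the direct difference ΔNp63α minus TAp63γ was -0.43 ± 0.0782 (adjusted p = 0.000407). The remaining base excision genes had smaller changes. LIG3, the ligase that works with the scaffold XRCC1, fell by 0.37 ± 0.126 with shDBD (adjusted p = 0.047), a call lost in 12 of 22 settings, for example without shDBD array 2 (-0.35). LIG3 also fell by 0.38 ± 0.103 with ΔNp63α (adjusted p = 0.0113). This call was lost without vector array 2 (-0.32, adjusted p = 0.0509) and in the mean of all its probe sets (-0.28, adjusted p = 0.0512). The other LIG3 probe set gave -0.38 ± 0.138 with shDBD (adjusted p = 0.0722) and -0.18 ± 0.113 with ΔNp63α (adjusted p = 0.302). OGG1, the glycosylase for oxidised guanine, fell by 0.31 ± 0.0957 with ΔNp63α (adjusted p = 0.0246), and not without ΔNp63α array 1 (-0.20, adjusted p = 0.126) or vector array 1 (-0.25, adjusted p = 0.0981). PARP1, the sensor of strand breaks, rose by 0.24 ± 0.0821 with ΔNp63α (adjusted p = 0.0379), and without each of 5 single arrays the adjusted p lay between 0.0697 and 0.119. XRCC1, the glycosylase MPG and the endonuclease APEX1 passed in no comparison with a vector, with changes between -0.36 and 0.02.

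Of the nucleotide excision genes, ERCC1 alone passed with shDBD, where 21.3% of all genes passed in either direction. ERCC1, part of the nuclease that cuts on one side of the lesion, was 0.32 ± 0.103 lower with shDBD (adjusted p = 0.0344), and without any 1 of the 4 arrays of these groups its adjusted p lay between 0.0736 and 0.206. Another ERCC1 probe set rose with TAp63γ (0.39 ± 0.0754, adjusted p = 0.000574). DDB2, which recognises ultraviolet damage in chromatin, read 9.43 and 9.24 with shDBD and 9.21 and 9.38 with shTA, against 9.79 and 9.70 with the vector. Its differences of -0.40 ± 0.14 and -0.45 ± 0.14 did not pass (adjusted p = 0.0535 and 0.13). With TAp63γ, by contrast, DDB2 rose by 0.46 ± 0.115 (9.33, 9.29 and 9.33, against 8.72, 9.01 and 8.84 with the vector; adjusted p = 0.00355). ERCC3, a helicase of the complex that opens DNA around the lesion, rose by 0.48 ± 0.126 with TAp63γ (8.72, 8.52 and 8.81, against 8.05, 8.41 and 8.14 with the vector; adjusted p = 0.00527).

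XPA, which verifies the lesion, and XPC, which finds it, fell with both isoforms. XPA read 7.52, 7.41 and 7.41 with ΔNp63α and 6.80, 7.12 and 7.13 with TAp63γ, against 8.44, 8.16 and 8.17 with the vector. Its changes were -0.81 ± 0.109 (adjusted p = 3.93e-05) and -1.24 ± 0.109 (adjusted p = 1.67e-07), and the direct difference of 0.43 ± 0.109 placed TAp63γ lower (adjusted p = 0.00489). XPC read 8.72, 8.66 and 8.49 with ΔNp63α and 8.98, 8.95 and 8.97 with TAp63γ, against 9.12, 9.38 and 9.30 with the vector. Here ΔNp63α was the lower, with changes of -0.64 ± 0.0846 (adjusted p = 2.9e-05) and -0.30 ± 0.0846 (adjusted p = 0.00836), and a direct difference of -0.34 ± 0.0846 (adjusted p = 0.00418). ERCC2, the partner helicase of ERCC3, fell by 0.38 ± 0.0806 with ΔNp63α (7.44, 7.30 and 7.40, against 7.77, 7.86 and 7.64 with the vector; adjusted p = 0.00209). In the comparison of hairpins XPC was the 1 gene higher with shDBD, by 0.34 ± 0.104 (adjusted p = 0.0331), a call lost without shDBD array 1 or without either shTA array.

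Both polymerase ε subunits fell with shDBD, against 10.2% of all genes. POLE2, the accessory subunit, read 6.42 and 6.63 with shDBD, against 7.54 and 7.49 with the vector, and fell by 1.0 ± 0.123, a 1.99-fold difference (adjusted p = 2.43e-05). It read 8.15, 7.84 and 8.24 with ΔNp63α and 7.20, 7.18 and 7.37 with TAp63γ, against 6.86, 6.70 and 6.86 with the vector. POLE2 rose by 1.27 ± 0.1 with ΔNp63α, the largest rise of the 45 genes in that comparison (2.42-fold, adjusted p = 1.41e-07), and by 0.45 ± 0.1 with TAp63γ (adjusted p = 0.00169). POLE, the catalytic subunit, fell by 0.50 ± 0.117 with shDBD (adjusted p = 0.00519), and its difference of 0.26 ± 0.0952 with ΔNp63α did not pass (adjusted p = 0.0509).

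Set directly against each other, the isoforms differed in 29 of the 45 genes: 22 were higher with ΔNp63α than with TAp63γ and 7 were lower, against 19.2% and 20.6% of all genes (39.8% in either direction). Their arrays did not overlap for 32 of the 45 genes, against 45.8% of all genes. RAD51AP1, RAD50, BRCA1, XRCC4 and NBN were at least 2-fold higher with ΔNp63α in the probe sets used, a size passed in either direction by 5.23% of all genes. Another BRCA1 probe set gave 0.53 ± 0.11 and another RAD50 probe set 1.26 ± 0.0832. Further NBN probe sets gave 1.08, 0.75 and 0.91, and further XRCC4 probe sets 1.03, 0.90 and 0.07. The 22 included 10 of 12 recombination genes, with a median difference of 0.76 over the role, and 4 of 6 checkpoint genes. The 7 lower genes were UNG, OGG1 and APEX1 of base excision and ERCC2, ERCC3, XPC and DDB2 of nucleotide excision. The largest differences were 1.81 ± 0.176 for RAD51AP1 (adjusted p = 9.62e-07), 1.34 ± 0.0757 for RAD50 (adjusted p = 2.57e-09) and 1.29 ± 0.0746 for BRCA1 (adjusted p = 3.37e-09), followed by 1.16 for both NBN and XRCC4. Of the genes that passed against the vector, BRCA1, RAD51AP1, MSH6, XRCC4 and TOPBP1 were higher with ΔNp63α and lower with TAp63γ. Both isoform groups share the same vector arrays. Without TAp63γ array 3 the number lower with ΔNp63α was 4, and a separate fit of each arm gave 4 too; OGG1, APEX1 and ERCC2 lost their calls in both. ERCC2 was -0.18 (adjusted p = 0.12) without TAp63γ array 1. The OGG1 arrays of the isoforms overlapped (6.54, 6.89 and 6.84 with ΔNp63α, 6.88, 7.14 and 7.04 with TAp63γ; -0.26 ± 0.0957, adjusted p = 0.0394), a further OGG1 probe set was higher with ΔNp63α (0.27 ± 0.0953, adjusted p = 0.038), and the APEX1 difference was -0.30 ± 0.11 (adjusted p = 0.0423).

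**Figure D4:**
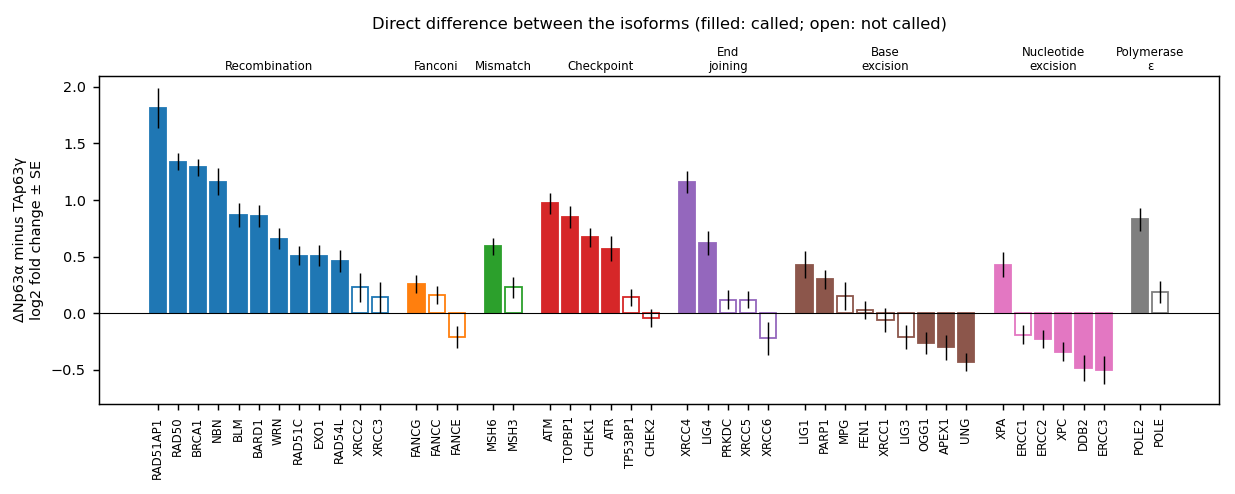
Difference ΔNp63α minus TAp63γ in log2 units with its SE for each of the 45 genes, grouped by role and sorted within it; filled bars passed the test and open bars did not. The 12 recombination bars all point up, 10 of them filled, and 5 of the 6 nucleotide excision bars point down, 4 of them filled.

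The knockdown and overexpression arms share no arrays, but 1 model with a shared variance per gene gave the calls of both. Counts of calls across the arms are therefore not counts of independent calls. Of the 23 genes that fell with shDBD, 14 rose with ΔNp63α, which is 60.9% of the first list and 87.5% of the 16 genes in the second. These 14 were BRCA1, BARD1, RAD51AP1, RAD54L, BLM, EXO1, FANCG, MSH6, CHEK1, CHEK2, XRCC4, LIG1, FEN1 and POLE2. BRCA1, BARD1, EXO1, FANCG, CHEK1, LIG1, FEN1 and POLE2 kept both calls in all 22 alternative settings. CHEK2 lost its shDBD call in 13 of the 22, and XRCC4, RAD51AP1 and BLM lost theirs in 4, 2 and 1. RAD54L lost its shDBD call in 3 and its ΔNp63α call in 9, and MSH6 in 1 and 7. Among all genes, 391 of the 1220 that fell with shDBD rose with ΔNp63α (32% of the first list and 26.6% of the second). With ΔNp63α, 2 of the 23 fell (8.7%), RAD51C and LIG3, against 23.7% of the 1220. LIG3 lost its shDBD call in 12 of the 22 settings and its ΔNp63α call in 2. With TAp63γ, 5 of the 23 rose (EXO1, CHEK2, UNG, FEN1 and POLE2) and 6 fell (BRCA1, RAD51C, RAD51AP1, NBN, MSH6 and XRCC4). These shares, 21.7% and 26.1%, were below the 31.1% and 36.6% of the 1220 genes that rose and fell with TAp63γ. Across the 45 genes the changes with shDBD and with ΔNp63α had a Pearson correlation of -0.63 and a Spearman correlation of -0.59, against -0.02 and -0.06 over all 11963 genes. With TAp63γ the values were -0.26 and -0.23, against 0.11 and 0.07. These correlations describe genes, which are not independent, and all genes of a comparison share the same arrays.

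**Figure D5:**
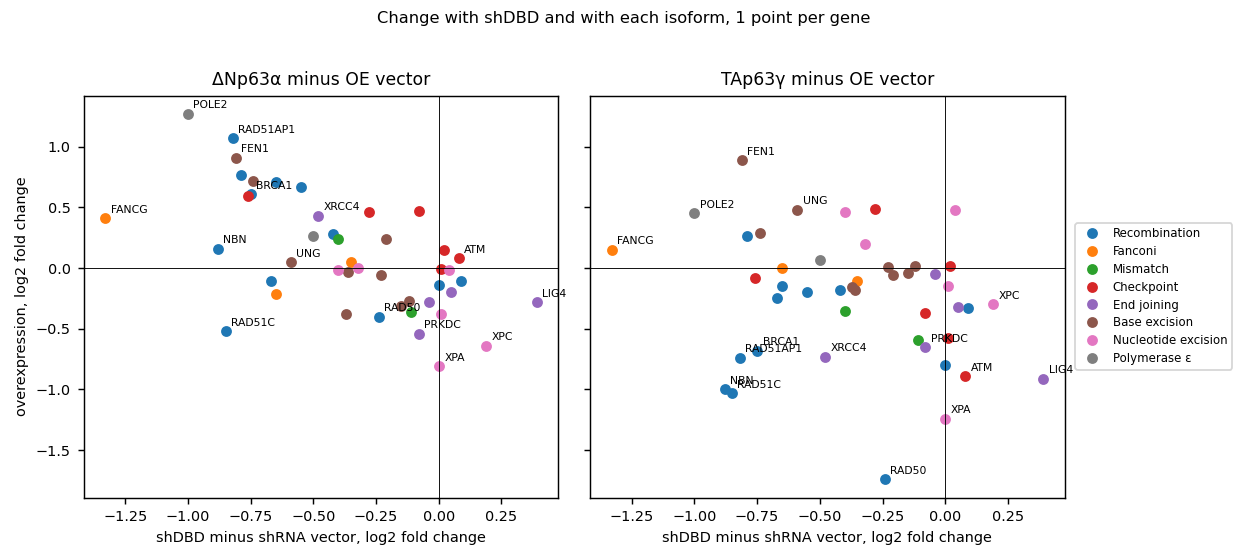
Change with shDBD (horizontal axis, log2) against the change with ΔNp63α (left) and with TAp63γ (right), 1 point per gene, coloured by role. On the left the points run from the upper left (POLE2, RAD51AP1, FEN1) to the lower right (XPC, XPA); on the right RAD51C, NBN, BRCA1 and RAD51AP1 lie at the lower left, lower in both comparisons.

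Genes of replication licensing and the replication fork were read beside the repair genes, since several repair genes serve replication. With shDBD 17 of 22 such genes fell and none rose, against 10.2% and 11.1% of all genes, with a median of -0.84. With shTA 1 fell and none rose, against 0.853% and 1.44% (median -0.14). With ΔNp63α 13 rose and 2 fell, against 12.3% and 16.6% (median 0.44), and with TAp63γ 8 rose and 7 fell, against 20.5% and 22.8% (median 0.20). Their part in the changes of the repair genes was not tested. With shDBD 1 of 7 fibroblast markers rose and none fell, and their summed log2 level was 48.31 to 48.92 with shDBD, against 46.12 to 46.34 with the vector. Their median change was 0.04, and the 1 that rose changed by 2.37. LUM stood below the 20th percentile on every array and COL3A1 above it on 1, while 5 of the 7 stood above it on every array. Of 4 immune markers 1 rose, with sums of 26.96 to 27.09 with shDBD, against 25.48 to 25.64 with the vector. Their median change was 0.10, and the 1 that rose changed by 1.27. LYZ stood below the 20th percentile on every array, and 3 of the 4 stood above it on every array. Of 5 endothelial markers 2 rose, with sums of 31.22 to 31.34, against 30.37 to 30.92 with the vector. Their median change was 0.08, and the changes ran from -0.21 to 0.41. CDH5 stood below the 20th percentile on every array, and 3 of the 5 stood above it on every array. The 8 epithelial markers summed to 87.16 to 87.28 with shDBD, against 89.44 to 89.76 with the vector, with 1 higher and 3 lower. Their median change was -0.15, and the changes ran from -1.24 to 0.78. The difference between the 3′ and the 5′ probe sets of actin, a sign of RNA integrity, was 0.0668 ± 0.0262 with shDBD and 0.1017 ± 0.1399 with shTA, against -0.0868 ± 0.0098 with the vector (SD, n = 2 each). It was 0.1623 ± 0.0594 with ΔNp63α and 0.0772 ± 0.0663 with TAp63γ, against 0.1699 ± 0.0578 with the vector (SD, n = 3 each). For GAPDH the same difference was 0.0342 ± 0.0158 with shDBD and 0.0369 ± 0.0414 with shTA, against 0.0067 ± 0.0009 with the vector. In the overexpression arm the GAPDH values were 0.0553 ± 0.0782 with ΔNp63α, -0.0293 ± 0.0496 with TAp63γ and 0.0132 ± 0.0328 with the vector. The part of these in the results was not tested.

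A further list of 97 repair and damage response genes outside the set, of which 73 were measured, gave 25 lower and 3 higher with shDBD, against 10.2% and 11.1% of all genes. With ΔNp63α 14 of the 73 were higher and 10 lower, against 12.3% and 16.6% of all genes, and with TAp63γ 14 were higher and 31 lower, against 20.5% and 22.8%. With shTA 1 of the 73 rose by limma and none fell, against 1.44% and 0.853% of all genes. The largest falls with shDBD were those of FANCI, a Fanconi protein that is itself ubiquitinated at crosslinks (6.91 and 6.93, against 8.45 and 8.49 with the vector; -1.55 ± 0.111, adjusted p = 1.19e-07), of RFC4, a subunit of the clamp loader (-1.33 ± 0.0935, adjusted p = 1.07e-07), and of TIMELESS, which protects stalled forks (-1.29 ± 0.143, adjusted p = 7.97e-06). Each of these 3 was without overlap between shDBD and vector arrays. The 3 genes that rose with shDBD were the glycosylases TDG (0.87 ± 0.126, adjusted p = 0.000117), MBD4 (0.50 ± 0.117, adjusted p = 0.0057) and SMUG1 (0.41 ± 0.106, adjusted p = 0.0101), all of which remove uracil or thymine from mispairs or from DNA, whereas UNG fell. TDG also was the 1 gene that rose with shTA, reading 9.36 and 9.40 with shTA and 9.68 and 9.5 with shDBD, against 8.63 and 8.82 with the vector (0.66 ± 0.126 with shTA, adjusted p = 0.011).

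With ΔNp63α the largest rises on this further list were those of the helicase RECQL (1.08 ± 0.209), of RPA3, a subunit of the single-strand binding protein (1.05 ± 0.0992), and of the sliding clamp PCNA (1.0 ± 0.115). The largest falls were those of GTF2H1, a subunit of the complex that holds ERCC2 and ERCC3 (-0.92 ± 0.176), of the mismatch gene MLH3 (-0.81 ± 0.0738) and of APTX, which trims aborted ligations (-0.70 ± 0.068). With TAp63γ the largest falls were those of the bypass polymerase POLI (-1.99 ± 0.208), the mismatch gene PMS1 (-1.95 ± 0.154) and USP1, the enzyme that removes ubiquitin from Fanconi proteins (-1.79 ± 0.165). The largest rises were those of RFC5 (1.08 ± 0.284), PCNA (0.89 ± 0.115) and DDB1, the partner of DDB2 (0.81 ± 0.119). The adjusted p of these 12 values lay between 5.15e-08 and 0.00534. RFC5 varied most between replicates of these genes, with SDs of 0.573 with TAp63γ and 0.455 with the vector.

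The promoters of genes that moved together were searched for letter patterns in the 250 bases before the start site, with RefSeq sequences of build GRCh38.p14 that covered 41 of the 45 genes. A group of patterns of 8 letters bound by E2F factors (TTTGGCGC, TTTCCCGC, TTTGCCGC or TTTCGCGC, on either strand, overlaps counted) was found in 5 of 41 promoters (12.2%), against 2.79% of all 27305 promoters and 4.09% of the promoters of genes tested. It was found in 3 of the 22 promoters of genes that fell with shDBD (13.6%) and in 2 of the 19 others (10.5%). Among all genes tested that fell with shDBD it was in 63 of 1016 promoters (6.2%). Of the 14 repair genes that fell with shDBD and rose with ΔNp63α, 1 had it (7.14%). CCAAT, on either strand, was in 17 of the 41 (41.5%), against 33% of all promoters and 35.6% of the promoters of genes tested. It was in 8 of the 22 that fell with shDBD (36.4%) and in 9 of the 19 others (47.4%). A pair of CATG letters with any 6 letters between them, a spacing of the core that p53 family sites contain, was in 0 of the 41, against 0.297% of all promoters, which says only that these letters are not in these windows. The windows with an E2F-type match are shown because 3 of them belong to genes that fell with shDBD (LIG1, FANCC and POLE) and 2 to genes that did not (XPC and MSH3). The match is in capitals, and each window is written 5′ to 3′ on the strand of its gene.
LIG1, chr19:48170431-48170478, minus strand: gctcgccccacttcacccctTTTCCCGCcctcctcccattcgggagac
FANCC, chr9:95317854-95317901, minus strand: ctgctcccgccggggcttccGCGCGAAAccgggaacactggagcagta
FANCC, chr9:95317728-95317775, minus strand: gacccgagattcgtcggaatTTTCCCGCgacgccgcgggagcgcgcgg
POLE, chr12:132687343-132687380, minus strand: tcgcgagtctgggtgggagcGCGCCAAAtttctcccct
XPC, chr3:14178815-14178851, minus strand: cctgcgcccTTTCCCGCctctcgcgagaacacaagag
MSH3, chr5:80654525-80654572, plus strand: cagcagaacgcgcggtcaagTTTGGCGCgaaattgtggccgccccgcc
The LIG1 match starts 114 bases before the start site, the FANCC matches 172 and 46, the POLE match 18, the XPC match 241 and the first MSH3 match 107. MSH3 holds a second match that shares letters with the first. A match describes letters in a window and does not show that a factor binds there.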

How the data were processed

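Total RNA of 15 MCF-10A samples had been hybridised to 1-colour Affymetrix arrays. The values analysed are the deposited log2 values of 22277 probe sets, which the submitters' processing notes credit to RMA, a tool whose version is not given in the sources used here. RMA makes the distributions of arrays alike and compresses differences at low levels; since array medians differed between the arms, levels were compared only within an arm. Leaving out 62 control probe sets, 19064 probe sets carried 1 gene symbol, 1043 several and 2108 none; 19052 matched a current gene record and 0 symbols were updated. Each of the 11963 genes was read from its probe set with the highest mean over all arrays, and 18 of the 45 genes had several to choose from. The members, their roles and all other gene lists were chosen with earlier results of these data known.

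Groups were compared with limma 3.58.1 in R 4.3.3, in 1 linear model of all 6 groups with a shared variance (9 residual and 5.87 prior degrees of freedom) and an intensity trend, and p-values were adjusted by Benjamini-Hochberg over all 11963 genes within each comparison, with a threshold of 0.05. The 15 arrays, 2 or 3 per group, limit the precision. Tested on simulated data with 100 changed genes for each size, a log2 change of 0.5 was recovered for 64% of genes in the shDBD comparison, 59% in shTA, 73% in ΔNp63α and 77% in TAp63γ. The simulated noise was independent between arrays, with the same SD per gene in both arms. In the data the median SD was 0.0821 and 0.113 in the arms, and overexpression arrays shared deviations. These rates therefore need not hold for either arm. Members were named by a rule of up to 6 called genes per direction in each comparison with a vector, plus those called in opposite directions, and further repair genes by up to 3 per direction; other members were added so that each is accounted for, and their values had then been seen. Alternatives were the arms fitted separately, the replicate number as a block, the mean of all probe sets of a gene, quantile normalization of all arrays, a floor at the 20th percentile, low genes left out, no variance trend, and each array left out. Tables and plots were made with Python 3.11.15, pandas 2.3.3 and matplotlib 3.10.9.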

Additional observations from a re-analysis of the deposited data

How the results depend on the processing

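Of the 125 values of the 45 genes that passed in the 6 comparisons (4 with a vector, 2 direct), 91 passed under all 22 alternatives, 34 missed the threshold under at least 1, and 0 changed sign. The values that passed throughout were 13 of 24 with shDBD, 0 of 1 with shTA, 19 of 25 with ΔNp63α, 23 of 25 with TAp63γ, 11 of 21 between the hairpins and 25 of 29 between the isoforms. Except for the mean of all probe sets, these alternatives kept the same probe set per gene. Of 32 calls against a vector in genes with several probe sets, 16 were called alike by all and 0 had one called opposite. Between the hairpins these were 3 and 0 of 8, and between the isoforms 7 and 1 of 10. With each array left out in turn, the number of the 45 genes called ranged from 15 to 26 with shDBD, from 0 to 2 with shTA, from 22 to 26 with ΔNp63α, from 23 to 26 with TAp63γ, from 12 to 23 between the hairpins and from 26 to 29 between the isoforms. Over all genes the ranges were 1650 to 2968 with shDBD, 87 to 472 with shTA, 2880 to 3574 with ΔNp63α, 4674 to 5515 with TAp63γ, 1348 to 2588 between the hairpins and 4069 to 4857 between the isoforms. Where an array left out leaves 1 array in a group, that array is assumed to vary like the others. With the arms fitted separately, shTA gave 1064 genes and 2 of the 45, against 274 and 1 in the joint fit, and the hairpins differed in 3359 genes, against 2197. With values floored at the 20th percentile, 3516 genes were higher and 2501 lower with ΔNp63α than with TAp63γ, against 2297 and 2465 without the floor, while the 45 genes gave 22 and 7 under both. The cause of these moves was not tested. With 2 arrays per group, small changes with the hairpins remain below what could be detected.

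With the replicate number as a block, 20 of the 45 genes passed with shDBD, 0 with shTA, 22 with ΔNp63α, 24 with TAp63γ, 18 between the hairpins and 26 between the isoforms (22 higher and 4 lower with ΔNp63α, against 22 and 7); over all genes shTA gave 150 calls. Deviations of same-numbered arrays from their group means had correlations of 0 to 0.07 among knockdown samples and of -0.63 to 0.48 among overexpression samples, so the numbers were not taken as pairs. For differently numbered arrays the ranges were -0.07 to 0 and -0.73 to 0.68. Overexpression arrays of different groups thus shared deviations across numbers, for example vector array 1 and ΔNp63α array 3 (0.68). The model has no term for this, and its source was not tested.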
